A study of Homo sapiens with 2 samples.

Results

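The 48 genes described here encode proteins that carry a cell through mitosis: the cyclin-CDK engine, mitotic kinases, the spindle checkpoint, centromere and kinetochore subunits, spindle proteins, cytokinesis proteins and the proliferation markers MKI67 and TOP2A. They were chosen by gene symbol, and all 48 were found among the 52402 symbols of the deposited tables. Each was measured by RNA sequencing in 2 libraries of DLD1, an established human colorectal adenocarcinoma cell line. The labels give 1 library as control (genotype WT) and 1 as HERV-R Knockout, where HERV-R is a human endogenous retrovirus with an envelope (env) gene. Both libraries carry the same protocol text, in which Cas9 and guide RNA vectors were transfected with lipofectamine and colonies were selected with hygromycin. The sources used here do not say what the control cells were transfected with, or whether the cells of either library descend from 1 colony. Since each group is 1 library, no test was possible and no difference below has a replicate check.

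The control library held 21881122 counts and the library labelled knockout 16406308, and levels are given as CPM, counts scaled to a library total of 1000000. The gene taken as the target, ERV3-1, which encodes the HERV-R envelope, showed no lower level under the knockout label (5.80 CPM in the control, 7.62 CPM in the other library; ratio 1.31, counting interval 1.02 to 1.69). A count over a whole gene does not see a small edit, and directions are given as labelled. Of 12 epithelial and intestinal markers 9 were measured. They included EPCAM (701 and 749.8 CPM), and the summed level of all 12 was 11717 CPM for the control against 5980 CPM for the other library, with KRT8, KRT18 and KRT19 at least 2-fold lower and CDX2 at least 2-fold higher there (99.4 and 298 CPM). The other 5 measured markers of that list lay between. Of 25 fibroblast, blood and endothelial markers 3 reached a mean of 1 CPM, all lower in the knockout-labelled library. They were ACTA2 (14.5 and 5.79 CPM), PDGFRB (4.66 and 2.32 CPM) and CD68 (2.47 and 0.914 CPM). PTPRC, COL3A1, DCN and CDH5 were among those with 0 counts in both. Fibroblast markers summed to 20.3 and 8.59 CPM, blood markers to 2.65 and 1.34 CPM, and endothelial markers to 0.640 and 0.549 CPM. In bulk RNA, a change in the share of cells in mitosis and a change in RNA per mitotic cell cannot be told apart. The part of cell density, growth phase or clone in the results was not tested.

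Mitotic genes are transcribed mainly in the G2 phase. Their promoters are known for a cell cycle homology region (CHR), which binds the MuvB complex, and for CCAAT boxes, which bind NF-Y. MuvB joins RB-family proteins in the repressive DREAM complex in resting cells and joins B-MYB (MYBL2) and FOXM1 in dividing cells. The protein products then build the kinetochore on centromeric chromatin, attach it to spindle microtubules, and hold the anaphase-promoting complex in check until every chromosome is attached.

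These promoter elements were looked for in RefSeq promoter windows (GRCh38.p14, 250 bases before to 50 bases from the start on), which matched 38 of the 48 members with 49 windows. The CHR (TTTGAA or TTCGAA, both strands) stood in 32 of 49 member windows (65.3%), against 16.4% of all 35116 windows. CCAAT (both strands) stood in 38 (77.6%, against 34.6%), and both together in 27 (55.1%, against 6.38%). The E2F motif (TTTCCCGC, TTTCGCGC, TTTGCCGC or TTTGGCGC, both strands) stood in 5 (10.2%, against 3.31%). The motifs were searched separately, so matches may overlap. CCAAT matches lay at a median of 82 bases before the start, and 32 of 46 CHR matches lay within 50 bases of it. For 7 members more than 1 window was read. Where such windows overlap, 1 site counts for each start, as with the CHR of ZWINT, so matches and windows are not all separate sites. A match describes letters and does not show that a factor binds. The 150 bases before the start are shown for PLK1, as a window with 1 element of each kind, for ZWINT, ASPM and CENPF, which were among the genes furthest above the control, and for CDK1, the lowest. Capitals mark CCAAT and TTTGAA or, where the match is on the other strand, ATTGG and TTCAAA. The stretches are chr16:23678739-23678888 (plus strand) for PLK1, chr10:56361260-56361409 (minus) for ZWINT, chr1:197146670-197146819 (minus) for ASPM, chr1:214603045-214603194 (plus) for CENPF and chr10:60778328-60778477 (plus) for the downstream of the 2 CDK1 starts.
PLK1: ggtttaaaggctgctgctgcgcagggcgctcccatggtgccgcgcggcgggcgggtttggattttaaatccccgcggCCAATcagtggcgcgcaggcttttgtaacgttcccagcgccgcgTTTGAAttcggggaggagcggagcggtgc
ZWINT: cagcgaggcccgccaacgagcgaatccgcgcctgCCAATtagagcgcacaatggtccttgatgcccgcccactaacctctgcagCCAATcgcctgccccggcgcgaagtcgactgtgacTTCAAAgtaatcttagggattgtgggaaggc
ASPM: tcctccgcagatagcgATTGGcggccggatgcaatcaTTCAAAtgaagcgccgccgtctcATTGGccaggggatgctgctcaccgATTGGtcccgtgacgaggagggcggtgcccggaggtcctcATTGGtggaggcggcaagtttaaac
CENPF: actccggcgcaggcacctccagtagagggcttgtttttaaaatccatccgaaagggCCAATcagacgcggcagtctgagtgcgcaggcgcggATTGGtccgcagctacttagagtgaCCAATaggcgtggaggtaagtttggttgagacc
CDK1: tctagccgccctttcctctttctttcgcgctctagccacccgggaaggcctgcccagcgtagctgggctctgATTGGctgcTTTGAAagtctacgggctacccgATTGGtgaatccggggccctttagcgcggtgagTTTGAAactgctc

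Higher and lower members alike held these elements. CDK1, lower in the knockout-labelled library, has 2 CHR and 2 CCAAT matches in the stretch shown, and ASPM, higher there, has 1 and 4. The median log2 ratio of the library labelled knockout to the control was 0.20 for the 28 members with a CHR in any window and 0.26 for the 10 without. It was 0.20 for the 24 with both elements in 1 window and 0.26 for the other 14. Over all compared genes with a window it was 0.18 for the 620 that hold both and 0.11 for the 8750 that do not. CENPI and CENPE, both among the higher members, have neither element in their windows, whereas MKI67 has 2 of each in its own. These numbers are descriptions across genes, which are not replicates.

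The mitotic genes differed among themselves in size and direction. The log2 ratio, taken after 1 CPM was added to each library, had a median of 0.24 over the members, against 0.12 over all 12644 genes whose mean reached 1 CPM. Of the 48 members, 6 were at least 2-fold higher by that measure (12.5%), where 6.78% of all genes compared were. None of the 48 was at least 2-fold lower, where 5.69% of all genes were. The 6 were CENPF, ZWINT, CENPU, ASPM, CENPE and CENPI. At 1.5-fold, 13 members were higher (27.1%, against 20.3% of all genes) and 1, CDK1, was lower (2.08%, against 13.2%). The log2 ratio was above 0 for 35 members and below 0 for 13 (72.9% above, against 58.1% of all genes). The range ran from -0.68 for CDK1 to 1.62 for CENPF. Summed, the members took 0.519% of the control's total and 0.608% of the other library's.

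**Figure D1:**
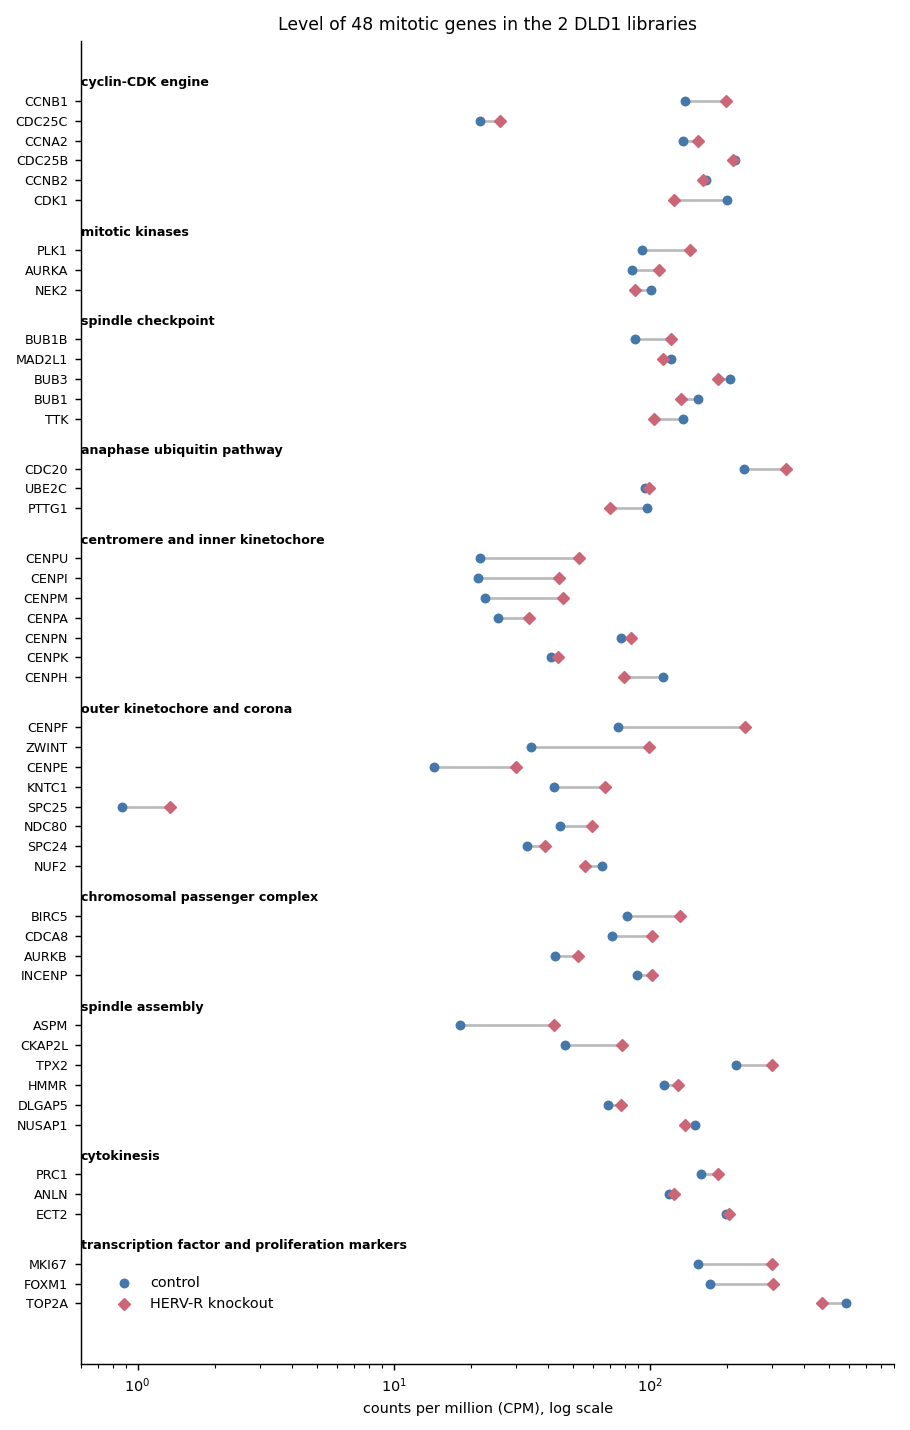
Level of each of the 48 mitotic genes in CPM (log axis) in the control (circles) and the HERV-R knockout library (diamonds), grouped by role, 1 library per group. CENPF runs from 75.3 to 234 CPM, CDK1 from 199.99 down to 124 CPM, and SPC25 lies lowest, at 0.868 and 1.34 CPM.

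Scaling moved these numbers. In place of library totals, with TMM, upper-quartile scaling or a median over gene ratios, the median of all genes shifted by -0.11 to -0.15, the members' median was 0.12, 0.10 and 0.08, and 4 members stayed at least 2-fold higher (CENPF, ZWINT, CENPU and ASPM; 8.33%, against 4.75%, 4.54% and 4.30% of all genes). CENPI and CENPE stood at 0.89 and 0.90 with TMM. The log2 ratios of UBE2C, ECT2, ANLN, CENPK and CENPN turned from above to below 0 under at least 1 of these scalings, and no other member turned.

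**Figure D2:**
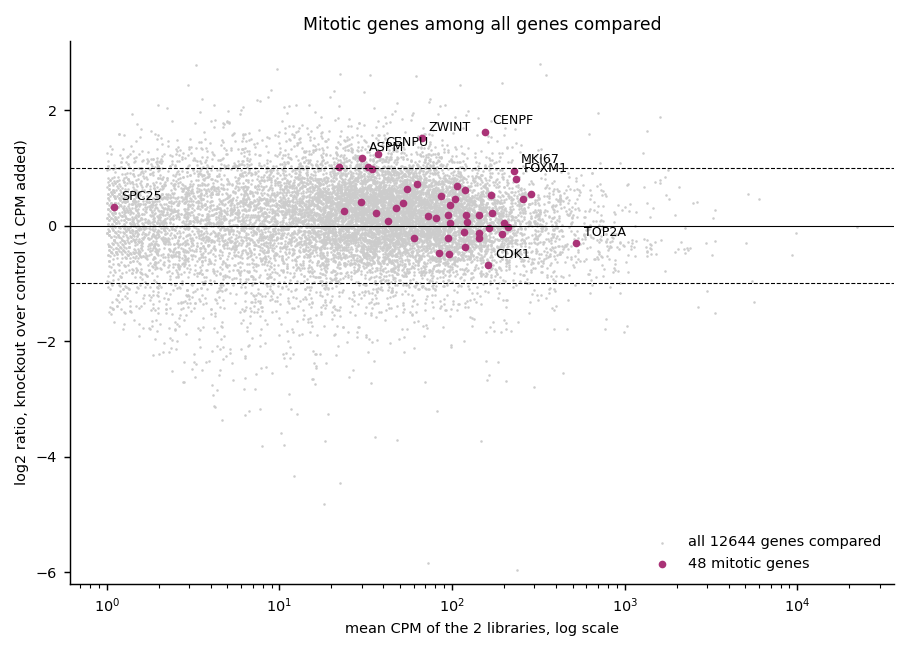
Log2 ratio of the library labelled knockout to the control (1 CPM added) against the mean CPM of the 2 libraries (log axis), for all 12644 genes compared (grey) and the 48 mitotic genes (coloured). Dashed lines mark 2-fold; 6 members lie above the upper one and none below the lower.

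In the outer kinetochore and its fibrous corona, the proteins that meet the microtubule, 7 of 8 members had a log2 ratio above 0. Of the 8, 3 were at least 2-fold higher. The shares of all genes were 58.1% and 6.78%. CENPF (chr1:214603195-214664571), a large corona protein that also binds dynein regulators, had 1647 counts in control cells and 3843 in those labelled knockout, or 75.3 and 234 CPM. That is a ratio of 3.11 (95% counting interval 2.94 to 3.30), the highest of the 48. ZWINT, which links the outer kinetochore scaffold to the checkpoint's ROD-ZW10-ZWILCH complex (chr10:56357227-56361273), had 34.2 and 99.1 CPM, a ratio of 2.90 (2.66 to 3.17). CENPE, a kinesin-like motor that brings chromosomes to the spindle equator (chr4:103105811-103198343), had 14.3 and 30.05 CPM (2.10-fold; 1.82 to 2.43). KNTC1, which encodes the ROD protein of the complex named above, had 42.4 and 66.6 CPM (1.57-fold; 1.44 to 1.72). Within this role these 4 had the highest ratios, and the subunits of the microtubule-binding NDC80 complex stood closer to the control or, for SPC25, had too few counts to place.

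Of the 4 subunits of that complex, NDC80 itself had 44.7 and 59.2 CPM (1.32-fold; 1.21 to 1.45) and SPC24 33.2 and 38.9 CPM (1.17-fold; 1.05 to 1.31). NUF2, the partner of NDC80 in its microtubule-binding end, had 64.8 and 55.8 CPM and was 1.16-fold lower (1.07 to 1.26). SPC25, which pairs with SPC24, had 19 counts against 22, and its interval held 1 (ratio 1.54; 0.798 to 3.02). Per 1000 bases of transcript the control levels were 20.6 CPM for NDC80, 32.9 for NUF2, 14.3 for SPC24 and 0.641 for SPC25. SPC25 was the 1 member whose symbol stands on 2 rows of the tables (13 and 6 counts in the control), so reads may have been lost between them and its level is uncertain. NOSTRIN, which overlaps it, had 59 and 58 counts.

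The centromere and inner kinetochore genes were divided, even between subunits of 1 complex. CENPU, which helps recruit PLK1 to the kinetochore (chr4:184694085-184734096), had 21.8 and 52.9 CPM, 2.43-fold higher in the knockout-labelled library (2.17 to 2.73). PRIMPOL, which overlaps CENPU, had 12.8 and 18.8 CPM. CENPH, CENPI, CENPK and CENPM form a single subcomplex of the constitutive centromere network. Of these, CENPI (chrX:101098204-101181859) had 21.3 and 44.01 CPM (2.06-fold; 1.83 to 2.32). CENPM had 22.8 and 45.96 CPM (2.02-fold; 1.797 to 2.26), which is 0.98 on the log2 scale with 1 CPM added and so just under the 2-fold line. CENPK had 41.2 and 43.6 CPM, with an interval that held 1 (0.958 to 1.17). CENPH had 112 and 78.9 CPM and was 1.42-fold lower (1.33 to 1.52). So of the 4, CENPI passed the 2-fold line, as 6.78% of all genes did, and CENPM fell just short. Of the others, 1 had an interval that held 1, and 1 was lower. With TMM the log2 ratios of CENPI and CENPM were 0.89 and 0.86, both under the line, and that of CENPK was -0.038. CENPA, the histone H3 variant that marks the centromere, had 25.4 and 33.8 CPM (1.33-fold; 1.18 to 1.5002), and CENPN, which reads CENPA nucleosomes, had 77.2 and 84.5 CPM (1.10-fold; 1.02 to 1.18).

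**Figure D3:**
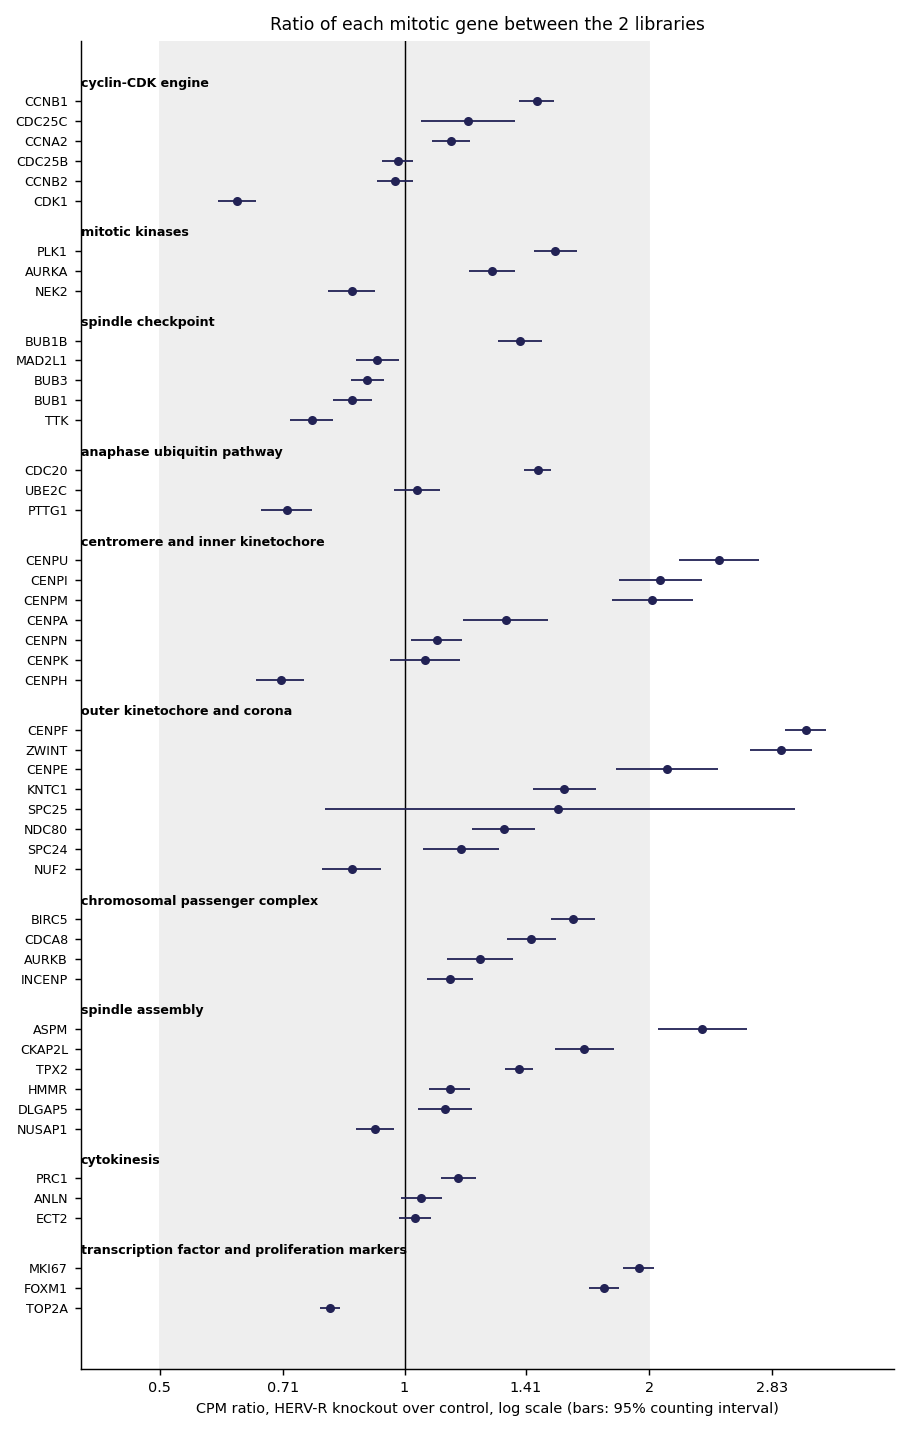
CPM ratio of the library labelled knockout to the control for each of the 48 mitotic genes, grouped by role, on a log axis, with bars for the 95% counting interval (no replicates). The shaded band spans 2-fold either way; the points right of it are CENPF, ZWINT, CENPE, CENPU, CENPI, CENPM and ASPM.

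The 5 members placed in the spindle checkpoint, whose products sit on unattached kinetochores and block the anaphase-promoting complex, were mostly lower by a small amount. Of the 5, 1 had a log2 ratio above 0, where 58.1% of all genes did, and 4 had one below 0. None passed 2-fold, where 6.78% of all genes were higher and 5.69% lower by that much. This does not extend to checkpoint genes as a class. KNTC1, placed in the outer kinetochore above, had a ratio of 1.57. Of 36 further kinetochore and checkpoint genes, 31 were above 0 and 5 below (86.1% above, against 58.1% of all genes). TTK, the kinase (MPS1) that starts the signal, had 134 and 103 CPM and was 1.30-fold lower (1.22 to 1.38). BUB1, a kinase scaffold, had 154 and 132 CPM and was 1.16-fold lower (1.10 to 1.22). BUB3 and MAD2L1, subunits of the inhibitory complex, had ratios of 0.9004 and 0.926. BUB1B, which encodes BUBR1 of that same complex, had 87.5 and 121 CPM and was 1.39-fold higher (1.30 to 1.48). The read-through gene BUB1B-PAK6 shares exons with it and had 18.5 CPM in both libraries.

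In the cyclin-CDK engine the kinase and its partners diverged. CDK1, the kinase that drives entry into mitosis (chr10:60778331-60794852), had 4376 counts in control cells and 2042 in those labelled knockout, or 199.99 and 124 CPM. It was 1.61-fold lower (1.52 to 1.69), the lowest ratio of the 48. CCNB1, its main mitotic cyclin, had 137 and 199 CPM (1.45-fold higher; 1.38 to 1.53). CCNA2, the S and G2 cyclin, had 135 and 153 CPM (1.14-fold; 1.08 to 1.20). CCNB2 and the activating phosphatase CDC25B had ratios of 0.974 and 0.981 with intervals that held 1, and CDC25C had 21.7 and 25.9 CPM. The kinase was thus lower while its 3 cyclins had ratios from 0.974 to 1.45. EXOSC9, which overlaps CCNA2, had 25.1 and 28.7 CPM, and FAM53C, which overlaps CDC25C, had 43.0 and 81.4 CPM.

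Among the mitotic kinases, PLK1, which acts from entry to cytokinesis, had 93.4 and 143 CPM (1.53-fold; 1.44 to 1.63), and ERN2, which overlaps it, 35.7 and 37.7 CPM. AURKA, the spindle pole kinase, had 84.8 and 109 CPM (1.28-fold; 1.20 to 1.37). NEK2, which splits the centrosomes, had 101 and 87.3 CPM and was 1.16-fold lower (1.09 to 1.24). The chromosomal passenger complex, which corrects faulty attachments and later guides cytokinesis, had all 4 members above 0 (58.1% of all genes were). All 4 stayed above 0 under each other scaling, INCENP narrowly (0.063 with TMM, 0.043 with the upper quartile, 0.027 with the median of gene ratios). The survivin subunit BIRC5 had 81.5 and 131 CPM (1.61-fold, 1.51 to 1.72) and borealin, CDCA8, 71.2 and 102 CPM (1.43-fold, 1.34 to 1.53). The kinase AURKB had 42.4 and 52.5 CPM (1.24-fold; 1.13 to 1.36), and the scaffold INCENP 89.2 and 101 CPM (1.14-fold; 1.06 to 1.21).

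The genes of anaphase control went different ways. CDC20, which activates the anaphase-promoting complex and is the checkpoint's target, had 233 and 339.6 CPM (1.46-fold; 1.40 to 1.51). UBE2C, the ubiquitin-conjugating enzyme of that complex, had 95.9 and 99.5 CPM, and its interval held 1 (0.971 to 1.11). PTTG1, or securin, the inhibitor of separase that the complex destroys, had 97.8 and 70.1 CPM, a ratio of 0.717 (0.667 to 0.770). Its near-identical copies PTTG2 and PTTG3P had 0 counts in both libraries; shared reads may still have been lost in counting.

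Of 6 spindle assembly genes, ASPM, which holds microtubule minus ends at the spindle pole (chr1:197084127-197146669), stood apart. It had 396 and 690 counts, or 18.1 and 42.1 CPM, 2.32-fold higher in the knockout-labelled library (2.05 to 2.64). CKAP2L had 46.8 and 77.7 CPM (1.66-fold; 1.53 to 1.81), and TPX2, the activator of AURKA, had 216 and 299 CPM (1.38-fold; 1.33 to 1.44). HMMR and DLGAP5 had ratios of 1.14 and 1.12. NUSAP1, a microtubule bundling protein, had 149.8 and 138 CPM and was 1.09-fold lower (1.03 to 1.15). The 3 cytokinesis genes stood close to the control: PRC1, which bundles the central spindle, had a ratio of 1.16 (1.11 to 1.22), while the intervals of ECT2 (0.984 to 1.08) and ANLN (0.989 to 1.11) held 1.

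The markers of proliferating cells disagreed with one another. MKI67, the Ki-67 antigen that coats mitotic chromosomes, had 155 and 299.8 CPM (1.94-fold; 1.86 to 2.03). TOP2A, which untangles sister chromatids and had the most counts of the 48, had 580.1 and 469.8 CPM and was 1.24-fold lower (1.20 to 1.27). FOXM1, the transcription factor of G2 genes, had 171 and 301 CPM (1.76-fold; 1.68 to 1.83). ITFG2 and RHNO1, which overlap FOXM1, had 15.9 and 30.4 CPM and 32.1 and 45.9 CPM. MYBL2, the other activator that joins MuvB, had 95.3 and 169.8 CPM (1.78-fold; 1.68 to 1.89). Both activators thus stood further above the control than the members' median.

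By coding length, the longest members had the highest median and the middle class the lowest, though single members of different lengths overlapped. The 5 members with at least 6000 coding bases were CENPF, CENPE, ASPM, MKI67 and KNTC1. Their log2 ratios ran from 0.64 to 1.62 with a median of 1.02. Of the 5, 3 were at least 2-fold higher (60%, against 9.90% of compared genes of that length that are not members). The 39 members under 3000 bases had a median of 0.22. Of these, ZWINT, CENPU and CENPI were at least 2-fold higher (7.69%, near the 6.36% of genes of that length that are not members). The 4 members from 3000 to under 6000 bases, among them TOP2A, had a median of -0.07. Among compared genes that are not members the median was 0.37 for 303 genes of at least 6000 bases, 0.20 for 1313 from 3000 to under 6000, and 0.09 for 9541 shorter ones. Spearman's rho of length and log2 ratio was 0.20 over the 48 members and 0.11 over 11205 genes, as a description across genes of the same 2 libraries. The part of length or RNA integrity in the long members' values was not tested. ZWINT and CENPU, with 831 and 1254 coding bases, are short.

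**Figure D4:**
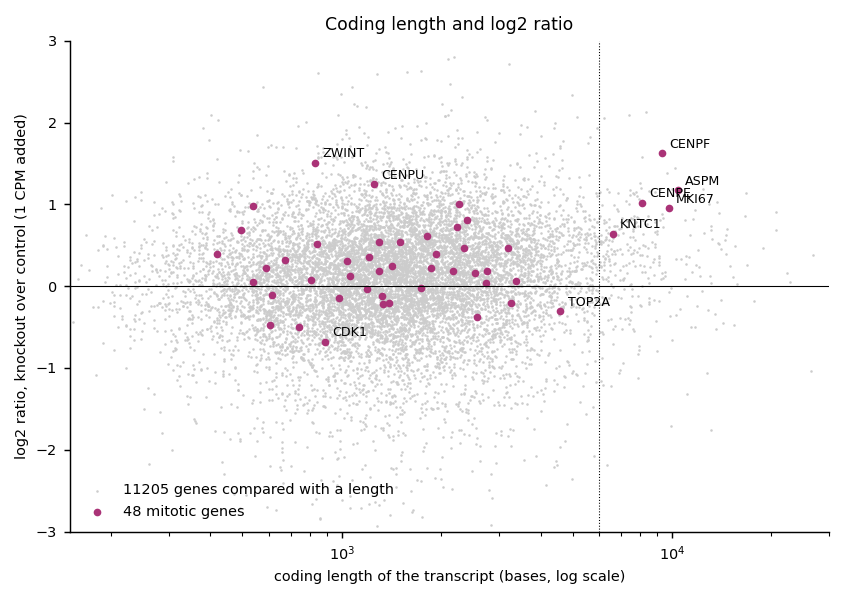
Log2 ratio of the library labelled knockout to the control (1 CPM added) against coding length in bases (log axis), for 11205 genes with a length (grey; 26 lie outside the axes) and the 48 mitotic genes (coloured). The 5 members right of the dotted line at 6000 bases lie between 0.64 and 1.62.

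Position on the chromosomes was looked at since chromosome 10 had the lowest median of the 23 chromosomes with at least 100 compared genes (-0.18 over 451 genes; the others from -0.06 to 0.24). It carries 4 members, which lay at both ends of the range: CDK1 (-0.68) and BUB3 (-0.15) below 0, MKI67 (0.95) and ZWINT (1.51) above. Chromosome 17, the next lowest, carries TOP2A, AURKB and BIRC5. Without chromosome 10, the median of the remaining 44 members was 0.24 and 5 were at least 2-fold higher (11.4%, against 6.89% of all genes). The part of chromosome copy number was not tested.

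Mitosis genes outside the 48 were read from 4 lists that hold 110 measured genes. Of these, 12 were at least 2-fold higher (10.9%, against 6.78% of all genes compared) and none was lower (against 5.69%). Above 0 were 89 (80.9%, against 58.1% of all genes), with a median of 0.41. The 2-fold counts depended on the scaling. With TMM the 4 lists, in the order given below, had 2, 1, 1 and 2 genes at least 2-fold higher. The second of them also had 1 at least 2-fold lower. Of all genes 4.75% were higher and 6.95% lower by that much with TMM. Of 36 further kinetochore and checkpoint genes measured, 6 were at least 2-fold higher (16.7%), none lower, and 31 above 0 (86.1%, median 0.53). With TMM 2 were at least 2-fold higher, where 4.75% of all genes were. CENPT, which ties the centromere network to the NDC80 complex, had 16.4 and 38.6 CPM (2.35-fold; 2.06 to 2.68). ZW10, a partner of KNTC1, had 52.6 and 119 CPM (2.26-fold; 2.10 to 2.44). KNL1, the scaffold that ZWINT binds, had 53.5 and 92.9 CPM (1.74-fold; 1.61 to 1.88). The genes on both sides of the link that ZWINT makes were thus higher.

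Of 18 anaphase-promoting complex and separase genes, 2 were at least 2-fold higher (11.1%, against 6.78% of all genes). They were separase itself, ESPL1 (24.9 and 58.1 CPM, 2.33-fold), and the subunit ANAPC7 (63.2 and 136 CPM, 2.16-fold). With TMM 1 of the 18 was at least 2-fold higher and 1 lower, against 4.75% and 6.95% of all genes. Of 20 further regulators of mitotic entry and exit, 12 were above 0 (60%, near the 58.1% of all genes, median 0.19). At least 2-fold higher were 2 (10%, against 6.78% of all genes). They were PKMYT1, the kinase that inhibits CDK1 (52.0 and 127 CPM; 2.44-fold, 2.27 to 2.63), and the phosphatase CDC25A, which reverses that inhibition (30.1 and 64.4 CPM; 2.14-fold). With TMM 1 of the 20 was, where 4.75% of all genes were. WEE1, the other inhibitory kinase, had 123 and 114 CPM, and CKS1B, the small CDK1 subunit, 83.5 and 65.3 CPM (ratio 0.783; 0.725 to 0.845). Of 36 spindle and centrosome genes 31 were above 0 (86.1%). HAUS5 (2.34-fold) and CEP192 (2.26-fold) passed 2-fold, 5.56% of the list and below the 6.78% of all genes.

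**Figure D5:**
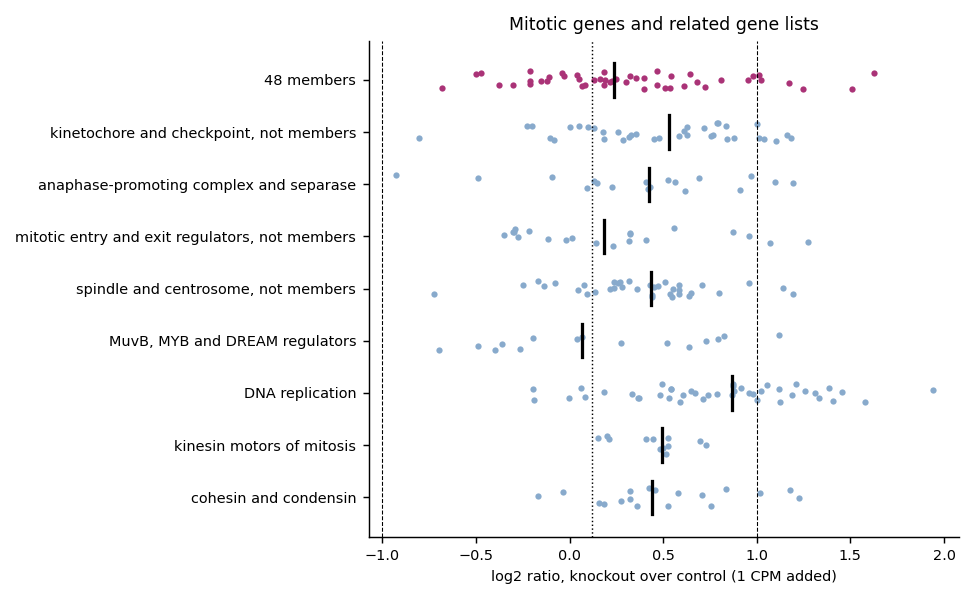
Log2 ratio (1 CPM added) of each measured gene in the 48 members and in 8 related lists; each point is a gene and the black bar is the list's median. The dotted line is the median of all genes compared (0.12) and dashed lines mark 2-fold; the members' median is 0.24 and that of DNA replication genes 0.87.

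Related machinery outside mitosis proper was read the same way. DNA replication genes had a median of 0.87, with 14 of 43 at least 2-fold higher (32.6%, against 6.78% of all genes) and none lower. Above 0 were 40 (93.0%, against 58.1%). POLA1 (18.01 and 71.9 CPM) and LIG1 (37.9 and 115 CPM) were furthest up. All 12 measured mitotic kinesins were above 0 (58.1% of all genes were), with a median of 0.49, and none passed 2-fold. For KIFC1, whose symbol stands on 4 rows with 53 and 46 counts, the interval held 1 (0.763 to 1.75). KIF15, whose symbol stands on 2 rows, was too low to compare (9 and 8 counts), and its level is uncertain. Cohesin and condensin had a median of 0.44, with 3 of 18 at least 2-fold higher (16.7%), led by STAG1 (38.8 and 92.2 CPM) and NCAPG (51.1 and 117 CPM). The MuvB, MYB and DREAM regulators had a median of 0.07, and 1 of 15 passed 2-fold (6.67%, near the 6.78% of all genes). It was the DREAM pocket protein RBL1 (17.5 and 39.0 CPM, 2.23-fold, 1.97 to 2.54). No gene of that list passed 2-fold with any other scaling, where its median was -0.05 (TMM) or lower. Differences between lists were not tested.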

How the data were processed

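The authors deposited 1 table of raw counts per library, with 58173 rows of whole numbers that are not normalized. TopHat and GRCh38 are the tool and build named per the submitters' processing notes. No source used here gives the counting program, the annotation or the use of strand, so overlapping genes are named beside the members they touch where they hold at least 100 counts. Per the labels' protocols the RNA was extracted with Trizol and a directional kit was used.

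Rows of a symbol were summed (52402 symbols) and scaled to CPM by the column total. The log2 ratio had a pseudocount of 1 CPM, which understates changes of low genes. The 12644 genes whose mean reached 1 CPM were compared with a 2-fold size rule, and all 48 members reached that level. Single ratios are of CPM without a pseudocount, with exact 95% Clopper-Pearson intervals (scipy 1.17.1). These cover counting error only, and duplicates are not independent molecules. The floor for a count of 0 is 3 counts (0.137 and 0.183 CPM). Lengths are those of the GENCODE release 29 transcript with the longest coding sequence, used in place of the protein lengths first planned. Genes' positions and promoter windows come from RefSeq, GRCh38.p14.

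The members and lists were chosen with earlier results of these data known. Members were named if at least 1.5-fold different with an interval without 1, or highest or lowest in a role, and the related lists by the 2 genes furthest out past 2-fold and by 4 regulators (MYBL2, CKS1B, WEE1 and KNL1). Other genes were chosen after their values were seen. The calculation was tried on counts simulated with Poisson error and set fold changes. Such counts hold no variation between cultures or clones, so this is no check of the differences reported. Alternatives were other pseudocounts, filters, size rules, single-row symbols and scalings (TMM and upper quartile in edgeR 4.0.16, and the median of gene ratios), and, chosen after seeing the data, leaving out chromosome 10.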

Additional observations from a re-analysis of the deposited data

How the results depend on the processing

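With library totals 54.4% of all 2-fold calls were higher, against 40.6% with TMM, 38.5% with the upper quartile and 36.5% with the median of gene ratios. The members' median log2 ratio of 0.24 was 0.12, 0.10 and 0.083 with these, and lay 0.11 above the median of all genes with each of them, as against 0.12 with library totals. The members at least 2-fold higher numbered 4 with these scalings (8.33%, against 4.75%, 4.54% and 4.30% of all genes) and with a pseudocount of 5 CPM (3.37% of all genes). They numbered 7 with one of 0.1 CPM, where CENPM was added (14.6%, against 8.89%). They were 6 without a filter (4.07% of all genes), with a minimum mean of 5 CPM (6.57%) or with single-row symbols (6.83%). A 1.5-fold rule gave 13 higher (20.3% of all genes) and 1 lower, CDK1 (13.2%); a 3-fold rule gave 1 higher, CENPF (2.08%, against 0.933%). No member was at least 2-fold lower under any of these alternatives. No paired analysis was possible because each group has 1 library, and none could be left out. SPC25 is limited by its 19 and 22 counts, with its symbol on 2 rows. The other 47 members had at least 10 CPM in both libraries.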

Other observations

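Ratios of 2 members within a library do not depend on the scaling. These pairs were picked with their values in view, and the intervals cover counting error only. CDK1 had 1.46 counts for each count of its cyclin CCNB1 in control cells and 0.626 in those labelled knockout, a quotient of 2.34 (2.17 to 2.51). TOP2A had 3.75 and 1.57 counts for each MKI67 count (2.39; 2.27 to 2.52). PTTG1, the separase inhibitor, had 0.420 and 0.206 counts for each count of CDC20, which triggers its destruction (2.03; 1.87 to 2.21). CENPH had 5.25 and 1.79 counts for each count of its subcomplex partner CENPI (2.93; 2.55 to 3.36).

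The members at least 2-fold higher were unevenly spread over expression levels. Of 10 members with a mean from 10 to under 50 CPM, 4 were at least 2-fold higher (CENPI, CENPU, CENPE and ASPM; 7.81% of all genes in that range), with a median log2 ratio of 0.69 against 0.18 for all genes there. Of 24 members from 50 to under 150 CPM 1 was (ZWINT; 4.17%, against 5.05% of all genes), and of 13 with at least 150 CPM 1 was (CENPF; 7.69%, against 4.02%). The ranges were set after the values were seen.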
